A study of Homo sapiens with 4 samples.

Results

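The cytosolic heat shock proteins and their cochaperones were followed in JJN3, an established cell line from human multiple myeloma, a cancer of plasma cells. The cells carried either an shRNA directed at the kinase gene WNK1 (shWNK1) or the NS shRNA, its control. The 40 genes were listed by name: the heat shock factors HSF1 and HSF2, and genes of the HSP70, HSP110, HSP90, small HSP and J-domain families with their cofactors. All 40 were found among the 60682 genes of the table, and all 40 were among the 14864 genes with enough counts to be tested. Total RNA was sequenced from 2 shWNK1 and 2 NS samples of this 1 line, grown in the same medium. Whether replicates came from different cultures is not given in the sources used here; p-values therefore cover only library-to-library spread, and that spread may be technical. The sequence of the hairpin is not given in the sources used here.

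Molecular chaperones bind unfolded protein chains and keep them from aggregating. HSP70 proteins work in cycles of ATP binding and hydrolysis: J-domain proteins deliver clients and start hydrolysis, and exchange factors such as HSP110 and BAG proteins release the nucleotide. Clients such as kinases and steroid receptors pass from HSP70 to HSP90 through the adaptor STIP1, and further cochaperones set the pace of the HSP90 cycle. HSF1 is the transcription factor that raises many of these genes under stress. Plasma cells make large amounts of secreted protein and carry a high chaperone load.

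Libraries held 16973521 to 20164122 counts, and levels are given as CPM, with library sizes scaled by TMM factors. A count of 0 allows up to 0.149 to 0.177 CPM (3 counts), depending on the library. WNK1 itself was at 18.6 and 19.6 CPM in shWNK1 cells, against 288 and 245.1 CPM in NS cells, 13.9-fold lower (edgeR adjusted p = 4.2e-25). Libraries of 1 group differed by a chi-square of 2.98 (shWNK1) and 6.07 (NS) per degree of freedom, so none was a copy of another. Of 8 plasma cell markers, 8 were detected in both shWNK1 libraries and in NS replicate 1, and 7 in NS replicate 2. These markers themselves moved with the knockdown: of 7 tested, 4 fell and 2 rose, among them SDC1, 2.50-fold lower (edgeR adjusted p = 3.3e-16), CD38, 1.51-fold lower (edgeR adjusted p = 0.0074), and SLAMF7, 7.77-fold higher (edgeR adjusted p = 1.6e-11), and their part in the results was not tested. The T and NK cell, myeloid and erythroid marker lists each summed to 2 to 10 counts per shWNK1 library and 2 to 19 counts per NS library. A list of 5 mature B cell markers summed to 55 and 66 counts in shWNK1 libraries and 139 and 114 in NS libraries, and MS4A1 and CD22 were at 0 in all 4. The epithelial marker EPCAM was at 120.4 and 126 CPM in shWNK1 and 109.1 and 119.3 CPM in NS libraries. Mitochondrially encoded transcripts took 5.82% and 6.02% of the counts in shWNK1 libraries and 4.93% and 4.58% in NS libraries. With these and the immunoglobulin genes left out of the scaling, the counts of called members were the same.

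The heat shock and cochaperone transcripts fell more often than they rose in shWNK1 cells. Of the 40 members 19 fell, 5 rose and 16 were not called, where 20.2% of all tested genes fell, 18.5% rose and 38.8% were called in either direction. The 19 falls make up 47.5% of the members and the 5 rises 12.5%. The median log2 fold change was -0.18 over the members and 0.005 over all tested genes. Both shWNK1 libraries lay below both NS libraries for 25 members and above them for 9, against 33.7% and 34.7% of all tested genes. Of the falls 5 reached 1.5-fold, 12.5% of the members, against 7.16% of all tested genes. Of the rises 3 reached it, 7.5% of the members, against 7.76% of all tested genes, a share near the background.

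Every member of the HSP90 system fell. Both HSP90 genes and all 7 HSP90 cochaperones fell, so that 9 of 9 were lower, with a median log2 fold change of -0.46; HSP90AB1, CDC37 and PTGES3 lost their call when 1 library was left out. The HSP70 and HSP110 chaperones held 4 falls and 1 rise among 9, and the J-domain genes 3 falls and 2 rises among 12. The HSP70 exchange and ligase cofactors held 1 fall and 2 rises among 6. Of all tested genes 20.2% fell and 18.5% rose, so the J-domain counts and the cofactor falls lay near the background. The groups by role were drawn up with the results of these data known. Their counts therefore describe the members and do not show that HSP90 genes differ from other chaperones. Leaving out shWNK1 replicate 1 or 2 left 14 and 15 falls over the 40 members, and leaving out NS replicate 1 or 2 left 20 and 18.

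**Figure D1:**
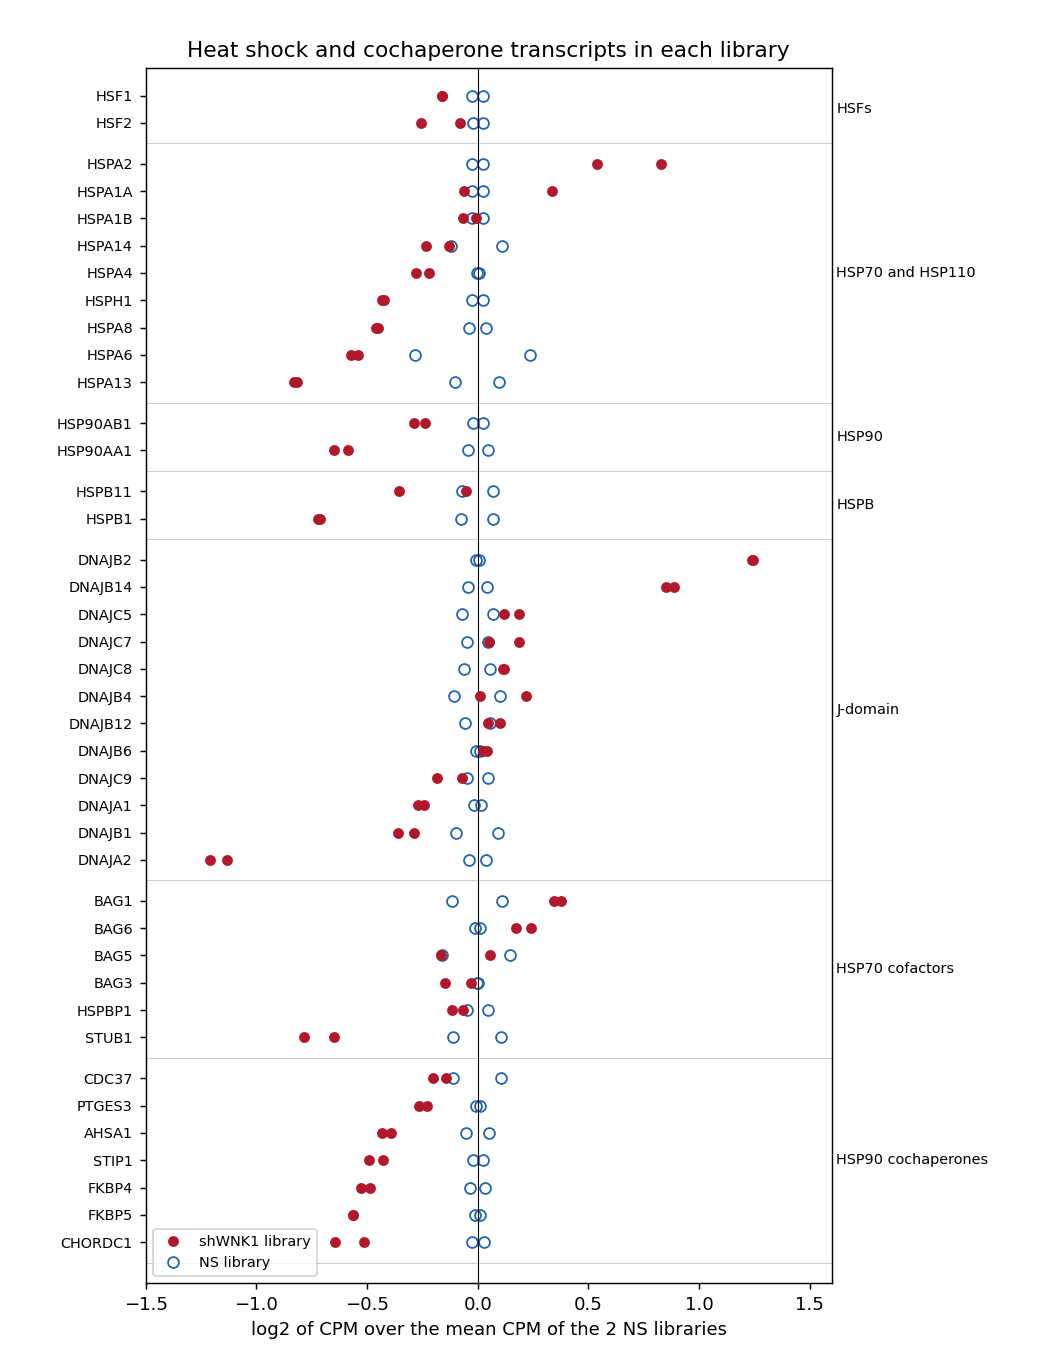
Each row is a member, and each point is the log2 of its CPM in 1 library over the mean CPM of the 2 NS libraries, with filled points for shWNK1 and open points for NS. All HSP90 and HSP90 cochaperone rows have their filled points left of the open ones, while the J-domain rows span from DNAJB2 (log2 fold change 1.24) to DNAJA2 (-1.17).

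**Figure D2:**
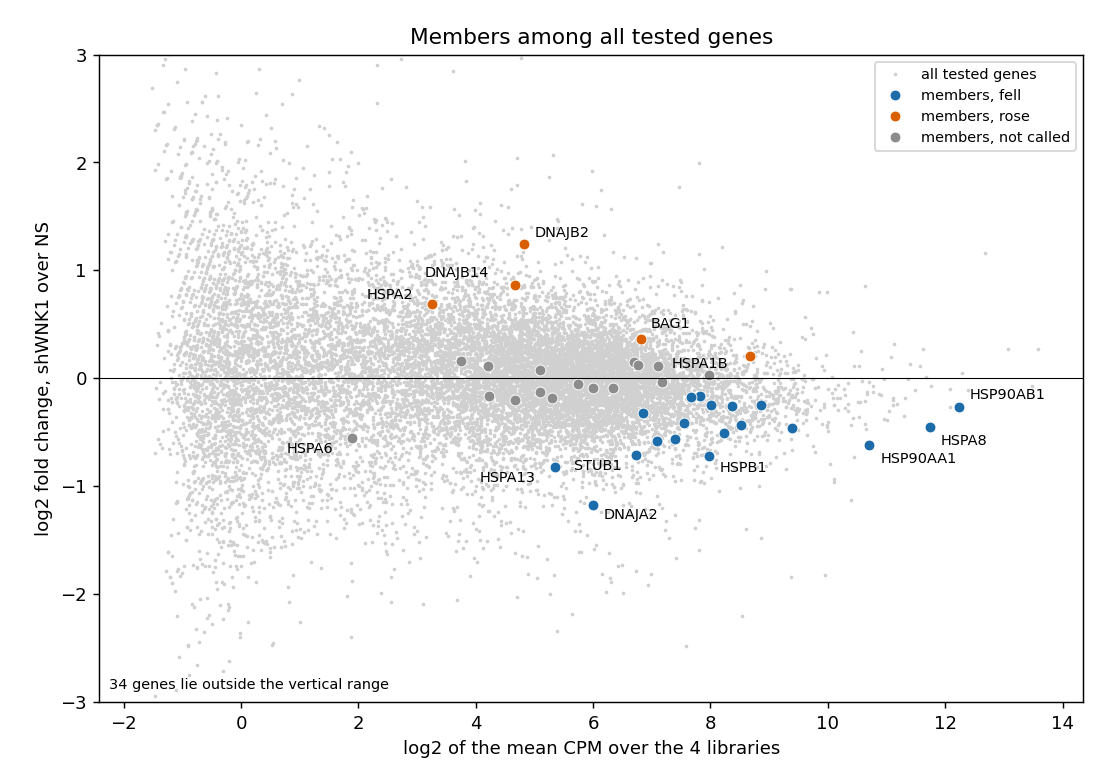
The log2 fold change of shWNK1 over NS is plotted against the log2 of the mean CPM over the 4 libraries for all 14864 tested genes, with members coloured by call. HSP90AB1, HSPA8 and HSP90AA1 lie at the high end of the levels and below 0, and 34 genes with a change beyond 3 on the log2 scale are outside the plot.

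Heat shock factors bind promoters at heat shock elements, inverted repeats of the unit GAA. The promoter stretches of 6 members are shown because they carry such repeats beside different results: HSP90AA1, HSPA8 and CHORDC1 fell, and HSPA6, HSPA1A and HSPA1B were not called. Each is the 120 bases before a RefSeq start site (GRCh38.p14), read 5′ to 3′ on the strand of the gene. Capitals mark every match of GAANNTTC or TTCNNGAA, each of which reads the same on both strands; overlapping matches run together. They lie at chr14:102087045-102087164 (minus strand), chr11:123062137-123062256 (minus), chr11:90223050-90223169 (minus), chr1:161524420-161524539 (plus), chr6:31815423-31815542 (plus) and chr6:31827618-31827737 (plus), in the order shown.
HSP90AA1: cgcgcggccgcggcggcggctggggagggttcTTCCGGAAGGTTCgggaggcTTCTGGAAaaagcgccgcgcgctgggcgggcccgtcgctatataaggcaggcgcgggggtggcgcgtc
HSPA8: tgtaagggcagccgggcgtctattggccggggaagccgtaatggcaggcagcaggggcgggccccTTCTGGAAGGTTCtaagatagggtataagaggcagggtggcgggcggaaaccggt
CHORDC1: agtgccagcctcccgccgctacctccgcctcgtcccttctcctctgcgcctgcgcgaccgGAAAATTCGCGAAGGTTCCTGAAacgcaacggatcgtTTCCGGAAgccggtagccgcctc
HSPA6: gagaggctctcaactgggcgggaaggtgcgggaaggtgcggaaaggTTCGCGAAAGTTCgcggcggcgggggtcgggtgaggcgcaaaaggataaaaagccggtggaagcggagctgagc
HSPA1A: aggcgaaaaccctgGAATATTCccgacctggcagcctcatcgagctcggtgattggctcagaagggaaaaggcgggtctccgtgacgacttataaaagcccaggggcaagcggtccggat
HSPA1B: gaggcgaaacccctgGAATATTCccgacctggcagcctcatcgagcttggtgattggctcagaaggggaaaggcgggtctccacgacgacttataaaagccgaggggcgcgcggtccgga

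HSP90AA1 has a further RefSeq start whose window held no match. The first 4 stretches hold 3 units in a row at a spacing of 2 bases, and in CHORDC1 3 such elements overlap in 1 longer run. The nearest of these longer elements began 88 bases before the start in HSP90AA1, 55 in HSPA8, 50 in CHORDC1 and 74 in HSPA6. HSPA1A and HSPA1B hold a single exact pair of units here, and their 300-base windows were identical in 277 of 301 aligned positions. Only exact matches were searched, so units that differ by a base or lie farther apart are not marked or counted. RefSeq windows of 300 bases (250 before the start and 50 after) were matched for 36 members, and HSF1, HSPA14, FKBP4 and STUB1 were not matched. The 3-unit element was present for 7 of the 36 members (19.4%), against 0.608% of 27305 genes in the table, and a pair of units for 13 members (36.1%), against 16.2%. By call, the 3-unit element was present for 5 of 16 members that fell, 0 of 5 that rose and 2 of 15 that were not called. A match describes the letters of this window and not binding by a factor.

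Of the factors themselves, HSF1 was at 214.3 and 213.8 CPM in shWNK1 libraries, against 235.2 and 243.6 CPM in NS libraries. Its shWNK1 values lay below both NS values, by 1.12-fold (log2 fold change -0.16, SE 0.060, edgeR adjusted p = 0.031). That call ended with the replicate block (0.0527), and also when shWNK1 replicate 1 (0.232), shWNK1 replicate 2 (0.218) or NS replicate 2 (0.0633) was left out. HSF2, a related factor with roles in development and stress, was at 18.7 and 16.5 CPM in shWNK1 and 20.1 and 19.4 CPM in NS libraries and was not called (edgeR adjusted p = 0.34).

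The HSP90 chaperones fell to different degrees. HSP90AA1 (chromosome 14, 102080742 to 102139699, hg38), the stress-inducible alpha form, was at 1292 and 1349 CPM in shWNK1 libraries, against 2086 and 1960 CPM in NS libraries. It was 1.53-fold lower, with a wide gap between the groups (log2 fold change -0.62, SE 0.056, edgeR adjusted p = 1.3e-10). HSP90AB1 (chromosome 6, 44246166 to 44253888), the constitutive beta form, was at 4316 and 4474 CPM in shWNK1 libraries, against 5355 and 5186 CPM in NS libraries. The beta form was 1.20-fold lower (log2 fold change -0.26, SE 0.055, edgeR adjusted p = 0.00023; 0.0818 without shWNK1 replicate 1). Scaled by exon length, the ratio of alpha to beta was 0.175 and 0.176 in shWNK1 libraries and 0.228 and 0.221 in NS libraries, a difference of -0.35 on the log2 scale. The alpha form thus made up a smaller part of the HSP90 transcripts in both shWNK1 libraries.

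The 7 HSP90 cochaperones fell by 1.13-fold to 1.49-fold. CHORDC1, a CHORD-domain protein that binds HSP90, was at 104.6 and 114.5 CPM in shWNK1 libraries, against 166.6 and 160.6 CPM in NS libraries (log2 fold change -0.58, SE 0.067, edgeR adjusted p = 2.3e-08). FKBP5, an immunophilin of steroid receptor complexes, was at 135.3 and 135.4 CPM in shWNK1 libraries, against 198.8 and 201.6 CPM in NS libraries (-0.57, SE 0.062, edgeR adjusted p = 7.9e-09). Its paralog FKBP4 was at 243.3 and 250.1 CPM in shWNK1 libraries, against 342.4 and 358.3 CPM in NS libraries (-0.51, SE 0.059, edgeR adjusted p = 2e-08). For these 3 genes the libraries of a group differed far less than the groups did.

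STIP1, the adaptor that joins HSP70 to HSP90, was at 549.8 and 574.1 CPM in shWNK1 libraries, against 760.9 and 786 CPM in NS libraries (log2 fold change -0.46, SE 0.056, edgeR adjusted p = 5.4e-08). AHSA1, which stimulates the ATPase of HSP90, was at 162.4 and 157.9 CPM in shWNK1 libraries, against 205.3 and 221.1 CPM in NS libraries (-0.41, SE 0.063, edgeR adjusted p = 2.8e-06). The groups did not overlap for either gene. PTGES3, the p23 cochaperone, was at 430.3 and 419.5 CPM in shWNK1 libraries, against 501.3 and 507.6 CPM in NS libraries, 1.19-fold lower (edgeR adjusted p = 0.00063; 0.0629 without shWNK1 replicate 2). CDC37, the kinase-specific cochaperone, was at 187.6 and 195.7 CPM in shWNK1 and 199.8 and 231.8 CPM in NS libraries, and its fall rested on the higher NS library (edgeR adjusted p = 0.041; 0.514 without NS replicate 2). CDC37 also missed the threshold with DESeq2 (0.0933), with the replicate block (0.0576) and without shWNK1 replicate 1 (0.368) or 2 (0.146).

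Among HSP70 chaperones the constitutive form fell and the classical stress-inducible forms were not called. HSPA8 (chromosome 11, 123057489 to 123063230), the constitutive HSC70, was at 2875 and 2894 CPM in shWNK1 libraries, against 4054 and 3844 CPM in NS libraries. It was 1.37-fold lower (log2 fold change -0.45, SE 0.055, edgeR adjusted p = 4.8e-08). HSPA1B was at 140.2 and 145.9 CPM in shWNK1 libraries, against 149.3 and 144.2 CPM in NS libraries (-0.04, SE 0.065, edgeR adjusted p = 0.70). HSPA1A was at 12.3 and 16.2 CPM in shWNK1 libraries, against 13 and 12.6 CPM in NS libraries (0.16, SE 0.157, edgeR adjusted p = 0.47). The groups overlapped for both genes.

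HSPA1A and HSPA1B are near-identical copies that lie side by side on chromosome 6 and encode the inducible HSP70. Of the 100-base words of their protein-coding transcripts, 67.3% of those of HSPA1A occur in HSPA1B and 68.8% of those of HSPA1B occur in HSPA1A. Read pairs that map to both lose mapping quality, so the single levels are uncertain, and the low count of HSPA1A against HSPA1B cannot be read as lower expression. Exons of a further gene on the same strand cover 36.6% of the exon bases of HSPA1B. Counted as 1 feature, the pair was at 152.4 and 162 CPM in shWNK1 libraries, against 162.4 and 156.8 CPM in NS libraries (log2 fold change -0.02, SE 0.064, edgeR adjusted p = 0.83). The sum does not bring back read pairs left out for low mapping quality, so the level of the pair is uncertain too. The ratio of HSPA8 to this pair, scaled by exon length, was 9.75 and 9.23 in shWNK1 libraries and 12.9 and 12.7 in NS libraries. The size of this ratio is uncertain for the same reason.

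HSPA6, which is strictly stress-induced in human cells, was at 3.04 and 2.97 CPM in shWNK1 libraries, against 3.64 and 5.20 CPM in NS libraries. This rests on 53 and 61 counts in shWNK1 and 62 and 88 counts in NS libraries, and the gene was not called (log2 fold change -0.56, SE 0.290, edgeR adjusted p = 0.13; 0.0478 without NS replicate 1). It shares 27.6% of its 100-base words with HSPA7. HSPA13, an HSP70-type protein of the microsomal fraction rather than the cytosol, was at 29.8 and 29.4 CPM in shWNK1 libraries, against 56 and 48.8 CPM in NS libraries. It fell most among the HSP70 genes, by 1.77-fold (-0.82, SE 0.099, edgeR adjusted p = 4.4e-08). HSPA2, best known from spermatogenesis, was the HSP70 gene that rose, at 12.9 and 10.6 CPM in shWNK1 libraries, against 7.39 and 7.15 CPM in NS libraries (0.69, SE 0.180, edgeR adjusted p = 0.0027; 0.101 without shWNK1 replicate 1). HSPA14, a ribosome-associated HSP70, had a log2 fold change of -0.18 and was not called (edgeR adjusted p = 0.17; 0.0246 without NS replicate 2).

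Both HSP110 genes among the members, nucleotide exchange factors of HSP70, were lower as well. HSPA4L, a further HSP110 gene listed outside the members, was not called (log2 fold change -0.04, edgeR adjusted p = 0.71), and its groups overlapped. HSPH1 (HSP105) was at 315 and 313.3 CPM in shWNK1 libraries, against 430.4 and 415.6 CPM in NS libraries. It was 1.35-fold lower, with the groups well apart (log2 fold change -0.43, SE 0.057, edgeR adjusted p = 2.7e-07). HSPA4 (APG-2) was at 230.9 and 240.4 CPM in shWNK1 libraries, against 280.9 and 278.9 CPM in NS libraries, 1.19-fold lower (-0.25, SE 0.059, edgeR adjusted p = 0.00098; 0.0906 without shWNK1 replicate 1). Among the small heat shock proteins HSPB1 (HSP27), an ATP-independent holdase, was at 190.4 and 189.4 CPM in shWNK1 libraries, against 296.3 and 327.8 CPM in NS libraries. It was 1.64-fold lower (-0.72, SE 0.062, edgeR adjusted p = 3.8e-11). HSPB11, which despite its name is a subunit of the intraflagellar transport machinery, had a log2 fold change of -0.20 and was not called (edgeR adjusted p = 0.21).

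J-domain genes went both ways, with 3 falls and 2 rises among 12, where 20.2% of all tested genes fell and 18.5% rose. As a group they thus lay near the background. DNAJA2 (chromosome 16, 46955362 to 46973674), a class A partner of HSP70, fell most among all members and was at 40.5 and 38.3 CPM in shWNK1 libraries, against 91 and 86.3 CPM in NS libraries. This is 2.25-fold lower (log2 fold change -1.17, SE 0.084, edgeR adjusted p = 5.2e-13). Its paralog DNAJA1 was at 303.6 and 297.8 CPM in shWNK1 libraries, against 354.9 and 362.6 CPM in NS libraries, a smaller fall of 1.19-fold (-0.25, SE 0.057, edgeR adjusted p = 0.00057; 0.051 without shWNK1 replicate 2). Scaled by exon length, the ratio of DNAJA1 to DNAJA2 was 13.9 and 14.4 in shWNK1 libraries and 7.24 and 7.80 in NS libraries. DNAJB1 (HSP40), the stress-inducible class B partner, was at 100.1 and 105.3 CPM in shWNK1 libraries, against 120.2 and 137 CPM in NS libraries (-0.32, SE 0.073, edgeR adjusted p = 0.00056; 0.0559 without shWNK1 replicate 1).

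DNAJB2 (chromosome 2, 219279267 to 219286900), which carries ubiquitin-interacting motifs and directs HSP70 clients to the proteasome, was at 39.7 and 39.9 CPM in shWNK1 libraries, against 16.8 and 16.9 CPM in NS libraries. It rose most among the members, by 2.36-fold (log2 fold change 1.24, SE 0.114, edgeR adjusted p = 1.6e-10). DNAJB14, a J-domain protein of the endoplasmic reticulum membrane that faces the cytosol, was at 33.1 and 32.4 CPM in shWNK1 libraries, against 18.5 and 17.4 CPM in NS libraries (0.87, SE 0.118, edgeR adjusted p = 3.9e-07). In both genes the 2 libraries of a group nearly coincided. The related membrane protein DNAJB12 was not called (0.07, edgeR adjusted p = 0.62). DNAJB4, DNAJB6, DNAJC5, DNAJC7, DNAJC8 and DNAJC9 were not called either, with log2 fold changes of -0.13 to 0.15. Without 1 library, DNAJC8 (0.0284 without NS replicate 1) and DNAJC5 (0.00789 without NS replicate 2) passed the threshold as higher in shWNK1 cells. Exons of FAM149B1 on the opposite strand cover 56.5% of the exon bases of DNAJC9; strand was not used in counting, so reads over both cannot be assigned.

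HSP70 cofactors split by gene. STUB1 (CHIP), the ubiquitin ligase that marks chaperone clients for degradation, was at 76.1 and 83.7 CPM in shWNK1 libraries, against 121.5 and 141.2 CPM in NS libraries. It was 1.64-fold lower (log2 fold change -0.72, SE 0.077, edgeR adjusted p = 6.7e-09). Exons of JMJD8 on the opposite strand cover 42.5% of the exon bases of STUB1. Strand was not used in counting, so reads over both genes cannot be assigned. BAG1, an exchange factor that binds HSP70 and the proteasome, was at 126.1 and 128.8 CPM in shWNK1 libraries, against 91.5 and 106.9 CPM in NS libraries (0.36, SE 0.074, edgeR adjusted p = 0.00019). BAG6, which guards exposed hydrophobic segments of new proteins, was at 425.6 and 445.7 CPM in shWNK1 libraries, against 373.9 and 380.4 CPM in NS libraries (0.21, SE 0.057, edgeR adjusted p = 0.0039; 0.189 without shWNK1 replicate 2). Among the 6 cofactors 1 fell (16.7%) and 2 rose (33.3%), against 20.2% and 18.5% of all tested genes. BAG3, an HSF1-induced exchange factor of selective autophagy, was at 75.7 and 82 CPM in shWNK1 libraries, against 83.9 and 83.7 CPM in NS libraries, and was not called (edgeR adjusted p = 0.40). The exchange factors HSPBP1 (-0.09) and BAG5 (-0.05) were not called.

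Levels per kilobase of annotated exon spanned about 3 orders of magnitude among the members. HSP90AB1 was highest, at 1475 ± 37.6 CPM per kb in shWNK1 and 1769 ± 40 CPM per kb in NS cells (SD, n = 2 each). HSPA8 followed at 594.9 ± 2.9 in shWNK1 and 814.4 ± 30.7 in NS cells, and HSP90AA1 at 259 ± 7.92 in shWNK1 and 396.9 ± 17.4 in NS cells. These 3 genes and HSPB1 held ranks 1 to 4 in both groups. Below them HSPB1, PTGES3 and STIP1 lay within 122.1 to 126.2 CPM per kb in shWNK1 cells. In NS cells HSPB1 (207.4 ± 14.8), STIP1 (168.1 ± 3.86) and PTGES3 (148.4 ± 1.3) lay further apart. HSPA6, DNAJB14 and HSPA2 were the lowest 3, at 1.28 to 2.53 CPM per kb in shWNK1 cells and 1.26 to 1.88 CPM per kb in NS cells. Annotated exon length counts every isoform, so the level of a gene is set too low on this scale where part of that length is not used in these cells, which was not measured.

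**Figure D3:**
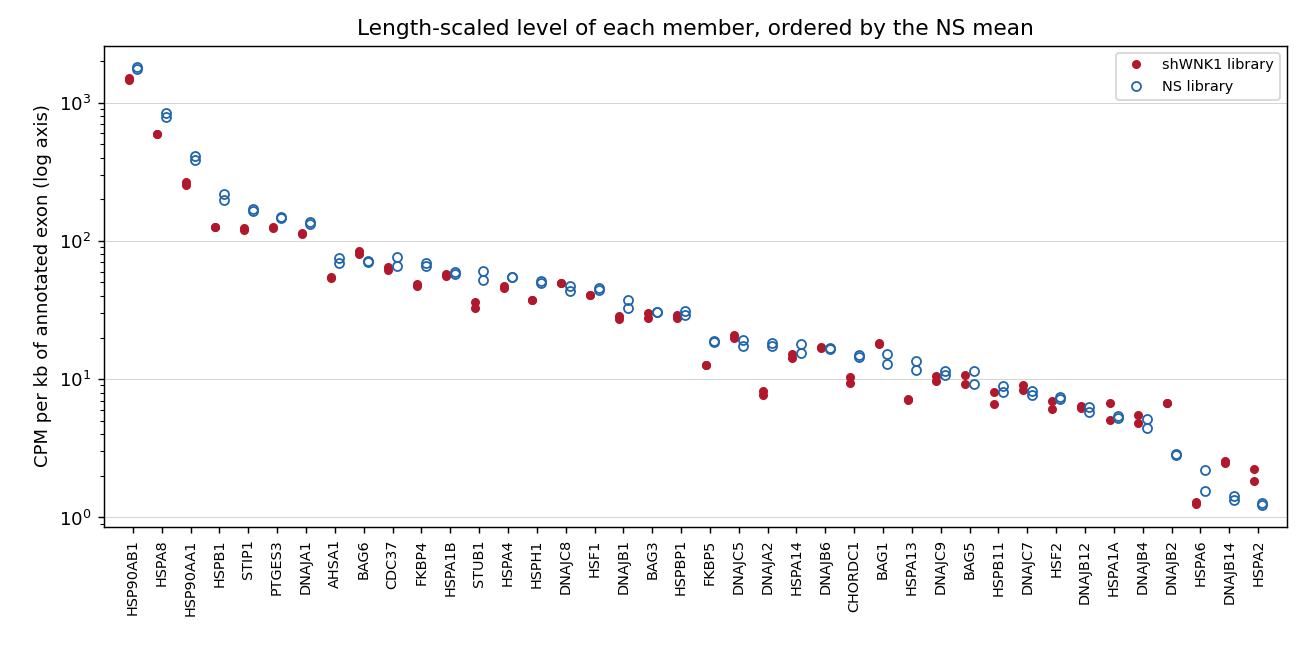
Points give the CPM per kb of annotated exon (log axis) of each member in each library, filled for shWNK1 and open for NS, with genes in the order of their NS mean. The order runs from HSP90AB1, at 1475 in shWNK1 and 1769 in NS cells, to HSPA2, at 2.03 in shWNK1 and 1.26 in NS cells.

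Together the members took 1.394% (95% Wilson interval 1.388 to 1.399) of all counts in shWNK1 replicate 1 and 1.415% (1.410 to 1.420) in shWNK1 replicate 2. In NS replicate 1 they took 1.707% (1.701 to 1.713), and in NS replicate 2 1.667% (1.661 to 1.673). These intervals cover counting error only. HSP90AA1, HSP90AB1 and HSPA8 alone took 0.872% and 0.889% in shWNK1 libraries and 1.12% and 1.07% in NS libraries. The other 37 members took 0.522% and 0.526% in shWNK1 libraries and 0.586% and 0.598% in NS libraries, so most of the smaller share came from 3 abundant genes. The J-domain genes held the same share in both groups, 0.125% in both shWNK1 libraries and 0.124% and 0.125% in NS libraries, although 5 of them were called. The HSP70 cofactors held 0.085% and 0.087% in shWNK1 libraries and 0.077% and 0.081% in NS libraries. In RNA from bulk cells, fewer cells that express a gene and less RNA per cell cannot be told apart.

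**Figure D4:**
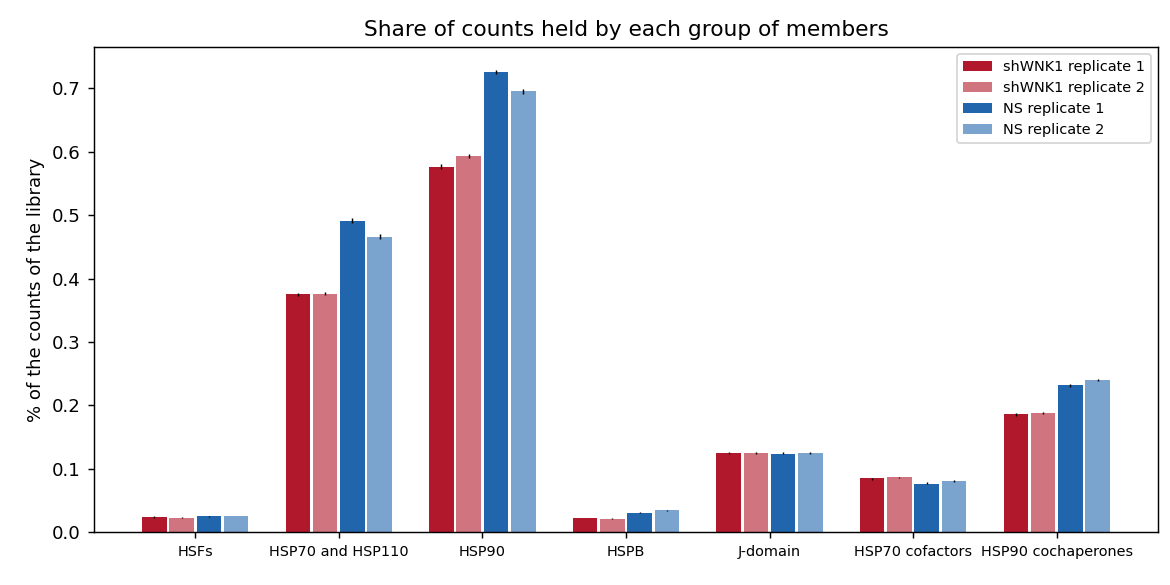
Bars give the percent of the counts of each library held by each group of members, with 95% Wilson intervals. The HSP90, HSP70 and HSP110, HSPB and HSP90 cochaperone bars are lower in both shWNK1 libraries, and the J-domain bars stand at 0.124% to 0.125% in all 4.

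Further chaperone genes were taken from lists outside the members. Of 34 tested other chaperones and cochaperones 11 fell (32.4%) and 6 rose (17.6%), against 20.2% and 18.5% of all tested genes. Their median log2 fold change was -0.001, close to the 0.005 of all tested genes. HSBP1, a small protein that binds HSF1 trimers and restrains them, was at 37 and 38.8 CPM in shWNK1 libraries, against 107.1 and 125.2 CPM in NS libraries, 3.06-fold lower (edgeR adjusted p = 5.4e-16). BAG2, an inhibitor of STUB1, was 2.36-fold lower (edgeR adjusted p = 8.3e-15), and the HSP90-associated nuclear movement protein NUDC was 1.46-fold lower (edgeR adjusted p = 7.8e-09). Rises included the HSP90 regulator FNIP1 by 1.45-fold (edgeR adjusted p = 0.00024) and the J-domain gene DNAJC27 by 1.46-fold (edgeR adjusted p = 0.0076).

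Prefoldin, which hands new actin and tubulin chains to the cytosolic chaperonin, had 4 falls and 0 rises among 6 subunits. Those falls are 66.7% of the subunits, where 20.2% of all tested genes fell and 18.5% rose. The smallest p-values were those of PFDN6 (log2 fold change -0.49), PFDN2 (-0.47) and VBP1 (-0.28). The R2TP complex, an HSP90 partner that assembles large complexes, had 2 falls and 0 rises among 4, RUVBL1 (-0.53) and PIH1D1 (-0.45). Of 11 tested further genes known to be induced through HSF1, 6 fell (54.5%) and 1 rose (9.1%). HSPD1, the mitochondrial chaperonin, was at 437.3 and 435.7 CPM in shWNK1 libraries, against 1564 and 1533 CPM in NS libraries, and fell more than any member (-1.83, edgeR adjusted p = 2.3e-22). BAG2 is in this list too, and CACYBP, a ubiquitin ligase adaptor, fell by 0.46 on the log2 scale (edgeR adjusted p = 1.3e-07). Over the 50 tested genes of these lists 21 fell and 7 rose, and the rises numbered 2 without shWNK1 replicate 1, 3 without shWNK1 replicate 2 and 3 with DESeq2.

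**Figure D5:**
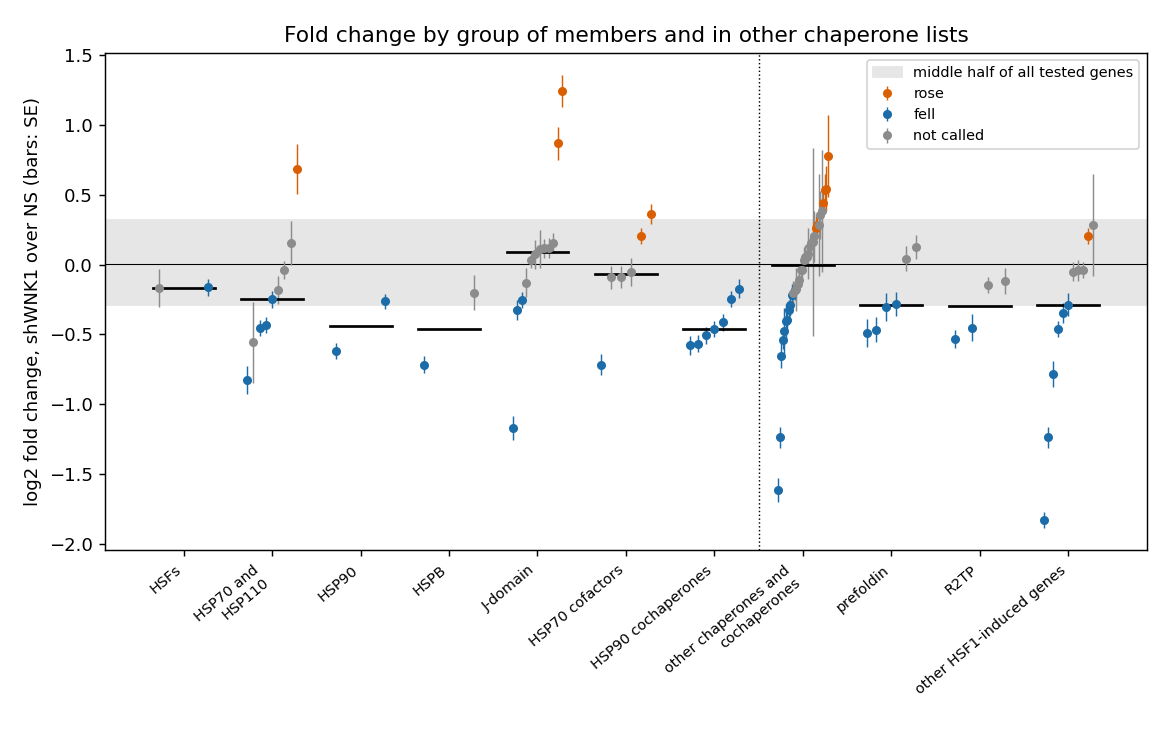
Each point is the log2 fold change of a gene, shWNK1 over NS, with its SE, coloured by call, for groups of members left of the dotted line and for the other lists right of it; black bars are medians and the grey band spans the quartiles of all tested genes, -0.29 to 0.32. The medians of the HSP90 cochaperones (-0.46), the HSPB group (-0.46) and the HSP90 chaperones (-0.44) lie below the band. Those of R2TP (-0.298) and prefoldin (-0.291) lie just below its lower edge (-0.290), and that of the J-domain genes (0.09) lies inside it. The HSPB group and the HSP90 chaperones hold 2 genes each, of which HSPB11 (-0.20) and HSP90AB1 (-0.26) lie inside the band.

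The 6-base word AGTATC, which earlier work on these data had found more often in the 3′ UTRs of falling genes, was looked up in the members. An annotated 3′ UTR held it in 34.9% of 2805 tested genes that fell, 19.5% of 2490 that rose and 22.5% of 6587 that were not called. Among members it was present in 6 of 19 that fell, 3 of 5 that rose and 2 of 16 that were not called. The sites of DNAJA2 and HSPA13, the largest falls, and of DNAJB2 and DNAJB14, the largest rises, are shown as 30 bases on the strand of the gene (hg38), with the word in capitals. They lie at chr16:46956871-46956900 (minus strand), chr21:14371943-14371972, chr21:14372205-14372234 and chr21:14373044-14373073 (minus), chr2:219285048-219285077 (plus) and chr4:99898856-99898885 (minus), in the order shown.
DNAJA2: taaaattggtatAGTATCtacagagtgtat
HSPA13, site a: aatgtttgttgaAGTATCttattttagaat
HSPA13, site b: tttttattgtaaAGTATCtctgctttatcc
HSPA13, site c: attcacaaattcAGTATCctgttaagtgtc
DNAJB2: agagaagaggggAGTATCctgagttgtagg
DNAJB14: aaaagctcaacaAGTATCttataatttgga

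The carriers that fell were HSPA13, HSP90AA1, DNAJA2, AHSA1, FKBP4 and FKBP5, and the carriers that rose were HSPA2, DNAJB2 and DNAJB14. A gene counted as a carrier when the 3′ UTR of any of its searched transcripts held the word. The only site of AHSA1 (chr14:77459933-77459962) lies far from the end of that gene at 77469472. Use of the transcript with this site was not measured. Genes with the word had longer annotated 3′ UTRs, with a median of 3003 bases against 1010 bases in genes without it over all tested genes, and 2165 against 522 bases among members. Of the HSP90 system, HSP90AB1, STIP1, CDC37, PTGES3 and CHORDC1 fell without carrying the word. The part of the word in any of these changes was not tested.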

How the data were processed

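The authors deposited one table of raw fragment counts per gene for the 4 libraries. Per the file headers, counts were made with featureCounts 2.0.0 on GENCODE 34 by gene, from read pairs with both ends mapped, a mapping quality of at least 20, chimeric pairs left out and strand ignored (setting 0). Per the submitters' processing notes, Trimmomatic, STAR and hg38 were used. One gene broken over 3 lines and 45 Y copies of pseudoautosomal genes were left out, which leaves 60682 genes. HSPB11, whose newer symbol is IFT25, was matched by its identifier.

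Genes kept by filterByExpr (14864) were scaled by TMM factors and tested two-sided with edgeR 4.0.16 in R 4.3.3 (glmQLFit with robust estimation, glmQLFTest, 2 residual degrees of freedom), shWNK1 over NS being the only term. A gene is called at a Benjamini-Hochberg adjusted p under 0.05 over all tested genes. Levels are CPM on TMM-scaled library sizes. The standard error (SE) is the absolute log2 fold change over the square root of the F statistic. Intervals of shares are 95% Wilson intervals and cover counting error only. Alternatives were RLE factors, TMM without immunoglobulin and mitochondrially encoded genes, no low-count filter, a block for replicate number, dropping each library in turn, DESeq2 1.42.0, and HSPA1A and HSPA1B summed.

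The members and the other lists were chosen with earlier results of these data known. Values in every library are given for 16 members picked by role and for up to 8 called members per direction by p. For the other lists, up to 3 called genes per direction are named by smallest p; a few items under this rule are not reported here. Promoter windows are those of RefSeq (GRCh38.p14), and 3′ UTRs are the protein-coding transcripts of the GENCODE 29 basic set.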

Additional observations from a re-analysis of the deposited data

How the results depend on the processing

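Of the 24 called members, 15 stayed past the threshold under all 9 refits, and none changed sign under them; the 9 that missed it in at least 1 refit are named with their values in the report. The count of member falls was 14 to 20 and of rises 4 to 6 with a library left out, and it was 18 and 5 with DESeq2 and 19 and 5 with RLE factors, without immunoglobulin and mitochondrially encoded genes, or with no low-count filter. With the replicate block, 17 members fell and 5 rose, and over all genes 2539 rose and 2804 fell; the deviations of same-numbered libraries had a correlation of -0.00469, and the samples share only a number. Over all genes, 1632 to 2778 rose and 1964 to 3024 fell with a library left out, against 2755 and 3005 with all 4, and DESeq2 gave 1805 rises. In the other chaperone lists 2 to 7 rose and 14 to 25 fell with a library left out, against 7 and 21, and DESeq2 gave 3 rises. Over all genes, calls dropped far more without either shWNK1 library than without either NS library, though both leave 3 samples. The cause of this and of the DESeq2 difference was not tested. Without immunoglobulin and mitochondrially encoded counts in the total, the members took 1.503% of counts in shWNK1 and 1.781% in NS libraries, since the total is smaller. Among members not called, 2 changed sign: BAG5 spanned -0.195 to 0.107 with a library left out (log2 fold change; above 0 without NS replicate 1 or shWNK1 replicate 2), and HSPA1A -0.066 (without shWNK1 replicate 2) to 0.340, and -0.021 when summed with HSPA1B. The differences in paralog ratios are the same without division by length, by construction. Depth limits HSPA6, with 53 to 88 counts a library.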
